A study of Mus musculus with 12 samples.

Results

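The macrophage genes are 10 genes that mark macrophages and microglia, the phagocytes that seed embryonic tissues before birth: Aif1, Adgre1, Csf1r, Fcer1g, Tyrobp, C1qa, C1qb, C1qc, Cx3cr1 and Laptm5. They were taken by gene symbol, with every probe annotated to them, which gave 15 of the 45281 probes and 10 of the 19057 named genes on the arrays. The RNA came from mouse eye primordia of E10.5 embryos, in the middle of gestation, on a mixed C57BL6 and FVB background. The 4 groups of 3 bead arrays are distal optic vesicle (the prospective retina) and surface ectoderm (the prospective lens) from wild-type embryos (WT) and from embryos in which Bmp4, a secreted growth factor gene, was deleted in the optic vesicle (KO). Both tissues were cut from 10 µm frozen sections by laser microdissection, so cells lying within or against the epithelium could be taken along, and 15 ng of RNA was amplified per sample. The driver of the deletion is not given in the sources used here. Each genotype had 3 embryos and their RNA was pooled, per the series' description, which leaves unclear what the 3 arrays of a group repeat, so p-values may measure only technical spread between arrays.

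Macrophages of the early embryo come from the yolk sac and enter the head while its blood vessels form. They depend on the receptor Csf1r, follow signals such as the membrane-bound chemokine Cx3cl1, which binds Cx3cr1, and clear dying cells, which are frequent in the optic vesicle and lens region while the eye cup forms. Fcer1g and Tyrobp are adaptors whose ITAM motifs pass signals from surface receptors to the kinase Syk. C1qa, C1qb and C1qc encode the chains of complement C1q, which tags debris for uptake. Aif1 (Iba1) binds actin, Adgre1 is the F4/80 antigen, and Laptm5 is a lysosomal membrane protein of blood cells.

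Promoter windows of 300 bases, from 250 before to 50 after the start of the gene (RefSeq, build GRCm38.p6), were given for 6 of the 10 genes. The letters GAGGAA, the core of the PU box read by the myeloid factor PU.1, were looked for on both strands. Of the 6 windows 4 held them, those of Aif1, C1qb, C1qc and Laptm5, and those of Fcer1g and Cx3cr1 did not, while 28.3% of all 32851 windows did. Laptm5 is shown because it was detected on every array, and Aif1 because its values spread the most within groups. C1qc is shown as a gene near background whose window holds the same letters. The Laptm5 window, chr4:130913066-130913365 on the plus strand, the Aif1 window, chr17:35176003-35176302 on the minus strand, and the C1qc window, chr4:136892865-136893164 on the minus strand, are written 5′ to 3′ with the matched letters in capitals. A match on the strand not shown reads TTCCTC.
Laptm5: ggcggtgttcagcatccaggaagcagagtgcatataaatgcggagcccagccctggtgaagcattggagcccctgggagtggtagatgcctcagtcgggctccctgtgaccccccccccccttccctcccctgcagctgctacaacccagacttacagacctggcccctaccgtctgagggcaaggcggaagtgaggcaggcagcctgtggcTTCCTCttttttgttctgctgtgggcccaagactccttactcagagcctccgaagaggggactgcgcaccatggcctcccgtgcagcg
Aif1: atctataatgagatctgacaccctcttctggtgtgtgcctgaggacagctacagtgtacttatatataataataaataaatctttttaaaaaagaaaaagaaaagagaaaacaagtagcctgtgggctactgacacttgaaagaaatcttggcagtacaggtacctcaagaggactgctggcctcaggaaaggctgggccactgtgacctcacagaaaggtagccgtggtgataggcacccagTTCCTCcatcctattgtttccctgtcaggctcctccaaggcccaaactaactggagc
C1qc: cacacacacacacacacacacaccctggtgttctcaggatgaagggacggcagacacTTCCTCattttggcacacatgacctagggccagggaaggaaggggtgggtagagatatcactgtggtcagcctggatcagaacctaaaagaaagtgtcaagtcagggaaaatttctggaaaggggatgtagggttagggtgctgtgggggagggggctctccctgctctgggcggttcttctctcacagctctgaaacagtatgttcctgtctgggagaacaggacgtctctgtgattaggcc
The starts used for Laptm5, Aif1 and C1qc lie inside the spans of the genes given further on. The first matched base lies at -38 from the start in Laptm5, at -7 in Aif1 and at -193 in C1qc. Spi1, which encodes PU.1, was not detected on any of the 12 arrays. A match of letters is a description of the window and says nothing of binding in these tissues.

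Between 45.0% and 46.7% of all probes were detected per array (detection p below 0.05), with median raw intensities from 85.7 to 123. Correlations across genes between replicates lay between 0.929 and 0.963. Bmp4, the deleted gene, fell in optic vesicle from 8.26 ± 0.04 to 4.59 ± 0.51 in normalised log2 intensity (SD, n = 3 each, limma adjusted p = 0.00010), and the labels do not say whether its probe lies in the deleted part. Some markers separated the tissues in WT arrays. The eye field gene Lhx2 stood at 8.46 ± 0.28 in optic vesicle and 4.83 ± 0.35 in surface ectoderm, and Cdh1, the epithelial cadherin, at 8.09 ± 0.39 and 12.52 ± 0.18. Of 6 measured optic vesicle markers, 3 were higher in optic vesicle of WT, 1 was lower and 2 did not pass by limma. Pax6 was the lower 1 (11.01 ± 0.05 in optic vesicle, 11.55 ± 0.16 in surface ectoderm). Of 9 measured surface ectoderm markers, 6 were higher in surface ectoderm of WT and 3 did not pass. Bmp4, Lhx2 and Cdh1 lie outside the rule for named genes and were chosen after their values were seen.

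Laptm5 was bright on every array, while the other macrophage genes were detected on some arrays or on none. Of the 15 probes 7 were detected on at least 3 of the 12 arrays, against 55.2% of all probes, and these 7 cover 6 genes: Aif1, Adgre1, Tyrobp, C1qa, Cx3cr1 and Laptm5. Among all named genes, 62.6% had such a probe. The share of the 10 genes lay near that of all genes, so it is no result about the macrophage genes. Laptm5 was the only one of the 10 detected on all 12 arrays, a state that 39.1% of named genes reached. Fcer1g and C1qb were not detected on any array, C1qc was detected on 1 array and Csf1r on 2. Per array, 2 to 7 of the 10 genes were detected, and the highest count came from WT surface ectoderm replicate 3. A count of genes kept in this way leans on the groups in which they were bright, so it is given as a description. In bulk RNA from microdissected tissue, fewer macrophages and less RNA per macrophage cannot be told apart.

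**Figure D1:**
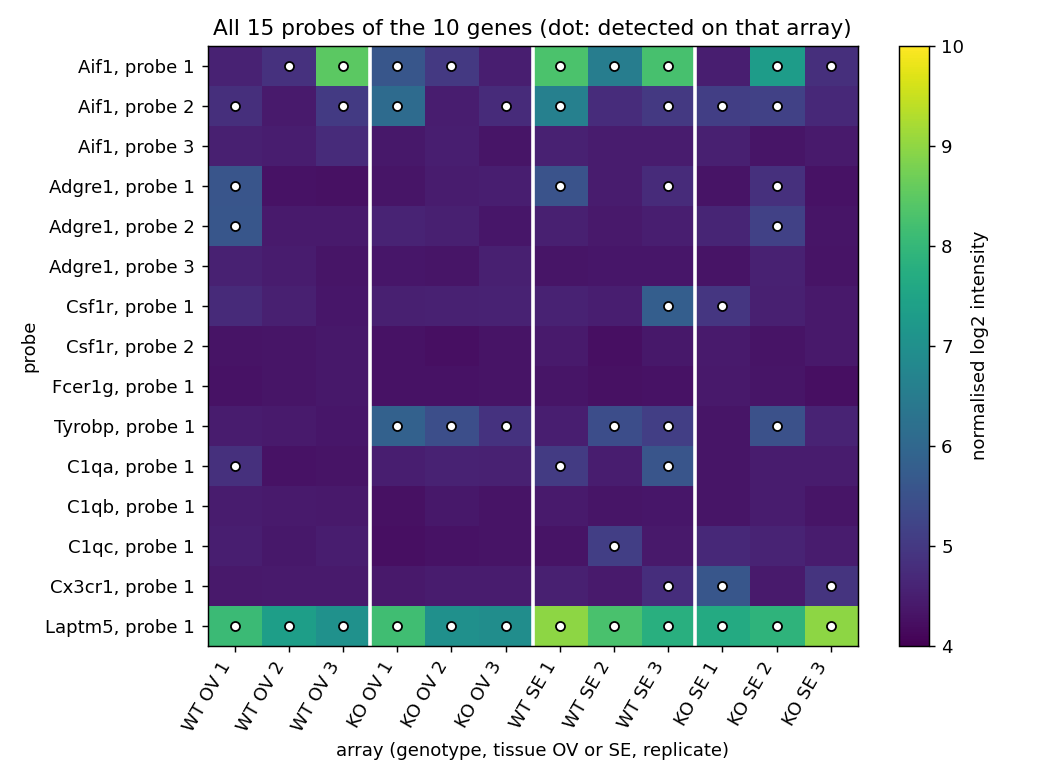
Normalised log2 intensity (colour) of all 15 probes (vertical axis) on the 12 arrays (horizontal axis), in 4 blocks of 3 arrays, with a dot where the probe was detected. Only Laptm5 carries a dot on all 12 arrays, and Fcer1g and C1qb carry none.

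None of the 6 tested macrophage genes differed between KO and WT in either tissue, or between the tissues in either genotype, at a limma adjusted p below 0.05 over 11924 genes. In optic vesicle 0 of 6 passed, where 1.80% of all genes did, and 1 of 6, Tyrobp, had an unadjusted p below 0.05, where 12.2% of all genes did. In surface ectoderm 0 of 6 passed, against 4.97% of all genes, and 2 of 6, Aif1 and C1qa, had an unadjusted p below 0.05, against 18.2%. Arrays of KO and WT did not overlap for Tyrobp in optic vesicle, a state shared by 21.2% of all genes, and for C1qa in surface ectoderm, shared by 19.2%. The median log2 difference of the 6 genes, KO minus WT, was -0.06 in optic vesicle (all genes -0.02) and -0.32 in surface ectoderm (all genes 0.02). The intervals given for each gene are not adjusted over all genes, so they do not mark the smallest detectable difference. Tyrobp in optic vesicle and Aif1 and C1qa in surface ectoderm had intervals that left out 0 and still did not pass. With 3 arrays a group, differences of such a size can be missed.

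The tissue comparison gave the same count. In WT, 0 of 6 passed where 8.38% of all genes did. C1qa had an unadjusted p below 0.05, against 21.0% of genes, and Tyrobp arrays did not overlap, against 27.7%. All 6 genes had lower means in optic vesicle than in surface ectoderm of WT, with a median log2 difference of -0.57 (all genes 0.05). How many of all genes were lower there was not counted. The direction did not hold throughout. On slide 1 alone, with 1 WT optic vesicle array, Adgre1 and C1qa were higher in optic vesicle (0.59 and 0.07). Cx3cr1 and Tyrobp were not detected on any WT optic vesicle array. In KO, 0 of 6 passed where 7.59% of genes did, with Cx3cr1 at an unadjusted p below 0.05 (20.1% of genes), C1qa not overlapping (23.1% of genes) and 4 of 6 lower in optic vesicle. The median there was -0.28 (all genes 0.01). When the KO effect in optic vesicle was set against that in surface ectoderm, 0 of 6 passed against 1.41% of genes, and Tyrobp had an unadjusted p below 0.05, as had 13% of genes. The comparisons share their groups, so their differences are not independent of each other.

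**Figure D2:**
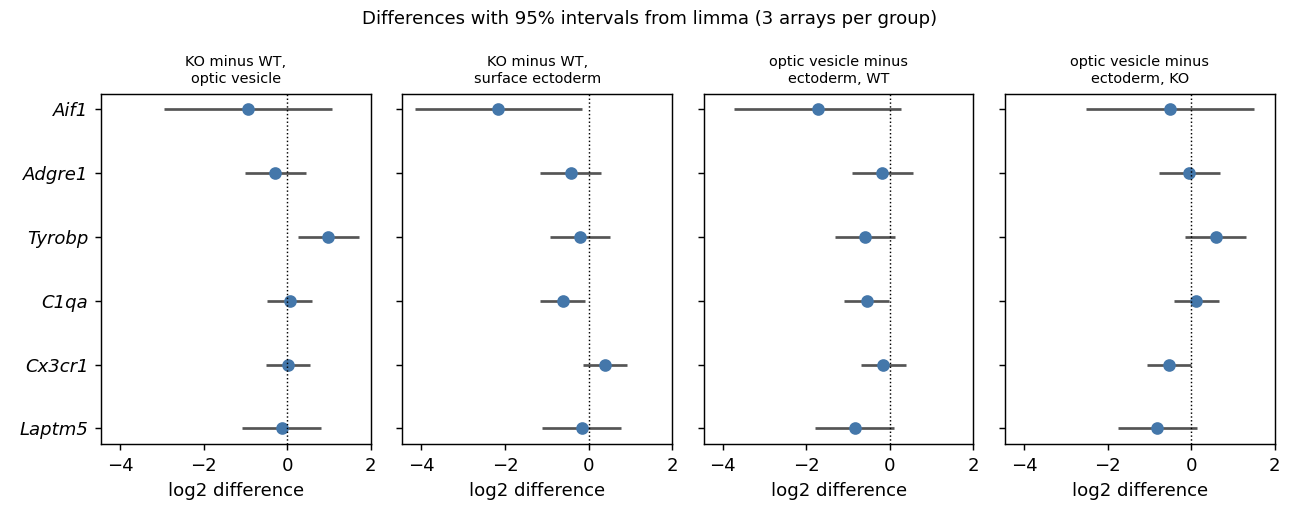
Log2 differences (points) with 95% intervals (lines) of the 6 tested genes for KO minus WT in each tissue and for optic vesicle minus surface ectoderm in each genotype, 3 arrays per group. The Aif1 intervals are the widest of the 6. For KO minus WT, Tyrobp in optic vesicle and Aif1 and C1qa in surface ectoderm lie off 0 before adjustment over all genes. So do C1qa between the tissues of WT and Cx3cr1 between those of KO.

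Csf1r (Entrez 12978, chromosome 18, 61105572 to 61131139 in GRCm38) is the receptor on which macrophage survival depends. Its first probe gave normalised log2 intensities of 4.72, 4.53 and 4.37 in WT optic vesicle, 4.52, 4.56 and 4.58 in KO optic vesicle, 4.57, 4.50 and 5.80 in WT surface ectoderm, and 4.95, 4.52 and 4.40 in KO surface ectoderm. It was detected on 2 arrays, WT surface ectoderm replicate 3 and KO surface ectoderm replicate 1, and was therefore not tested. The second probe was not detected on any array and stayed between 4.25 and 4.43.

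Cx3cr1 (Entrez 13051, chromosome 9, 120048683 to 120068296) is the fractalkine receptor of microglia and their precursors. It gave 4.42, 4.44 and 4.43 in WT optic vesicle and 4.41, 4.47 and 4.47 in KO optic vesicle, with 0 detections among these 6 arrays. In surface ectoderm it gave 4.53, 4.43 and 4.78 in WT and 5.60, 4.44 and 4.90 in KO, with 1 and 2 detections. KO minus WT was 0.02 in optic vesicle (95% interval -0.51 to 0.54, limma adjusted p = 1.00) and 0.40 in surface ectoderm (-0.13 to 0.92, limma adjusted p = 0.45). In KO, the surface ectoderm mean exceeded that of the undetected optic vesicle at least 1.19-fold, with overlapping arrays and a limma adjusted p of 0.24. Such bounds, here and further on, take the brighter group's mean as measured. In the group with no detected array, each value is replaced by the dimmest signal detected on that array, or kept if brighter. The bounds allow for undetected signal and not for the spread between arrays, so the true difference can be smaller.

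Tyrobp (Entrez 22177, chromosome 7, 30413782 to 30417582), the DAP12 adaptor, was detected on 3 of 3 KO optic vesicle arrays and on 0 of 3 WT optic vesicle arrays. The WT arrays stood at 4.46, 4.43 and 4.36 and the KO arrays at 5.87, 5.44 and 4.88, so the groups did not overlap. The log2 difference was 0.98 (95% interval 0.25 to 1.71), at least 1.56-fold, with an unadjusted p of 0.012 and a limma adjusted p of 0.22. It was 0.98 within each of the 2 slides that held the arrays, and passed within neither (limma adjusted p = 1.00 and 0.35). Slide 1 held 1 WT and 1 KO array of optic vesicle and 2 of each genotype of surface ectoderm, and slide 2 held 2 and 1. Within-slide values, here and further on, thus set 1 array against 1 for optic vesicle on slide 1 and for surface ectoderm on slide 2, where a lone array is assumed to vary like the other groups on its slide. In surface ectoderm the WT arrays gave 4.49, 5.42 and 5.12 and the KO arrays 4.34, 5.49 and 4.59, overlapping, with a difference of -0.21 (limma adjusted p = 0.82). The genotype effect was 1.18 larger in optic vesicle than in surface ectoderm, with a limma adjusted p of 0.30. In WT, the surface ectoderm mean exceeded that of optic vesicle at least 1.19-fold without passing (limma adjusted p = 0.35). The 95% interval of optic vesicle minus surface ectoderm was -1.32 to 0.13 there. In KO the order was the opposite, with optic vesicle 0.59 above surface ectoderm (limma adjusted p = 0.37), and the groups overlapped.

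Fcer1g (Entrez 14127, chromosome 1, 171229572 to 171234349), the adaptor of Fc receptors, stayed between 4.26 and 4.42 on all 12 arrays and was never detected. The pair of ITAM adaptors therefore gave a signal above background only for Tyrobp, on 6 of 12 arrays. Both were read by 1 probe each.

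The 3 complement C1q genes lie next to each other on chromosome 4. C1qa (Entrez 12259, 136895916 to 136898844) gave 4.83, 4.30 and 4.31 in WT optic vesicle and 4.50, 4.58 and 4.54 in KO optic vesicle, a difference of 0.06 (limma adjusted p = 0.97). In surface ectoderm it gave 5.04, 4.48 and 5.58 in WT and 4.34, 4.46 and 4.46 in KO. All WT arrays there lay above all KO arrays, by as little as 4.48 against 4.46, and 2 WT and 0 KO arrays were detected. The difference was -0.61 (95% interval -1.15 to -0.07, unadjusted p = 0.029, limma adjusted p = 0.21), and WT was at least 1.21-fold higher. Within slide 1 it was -0.36 and within slide 2, with 1 array against 1, -1.13, neither of which passed.

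Between the tissues of WT, C1qa was 0.55 lower in optic vesicle (a log2 difference of -0.55, limma adjusted p = 0.23). This difference was 0.07 within slide 1 and -1.27 within slide 2, and within slide 2 it passed (limma adjusted p = 0.039, over its alternatives 0.039 to 0.98). The slide 2 value rests on 2 optic vesicle arrays and WT surface ectoderm replicate 3, the highest of the 12. C1qb (Entrez 12260, 136880126 to 136886200) stayed between 4.27 and 4.47, never detected. C1qc (Entrez 12262, 136889801 to 136892936) stayed between 4.25 and 5.11 and was detected on WT surface ectoderm replicate 2 alone, an array on which C1qa was not.

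Adgre1 (Entrez 13733, chromosome 17, 57358581 to 57483529) had 3 probes. The tested probe gave 5.58, 4.30 and 4.27 in WT optic vesicle, 4.34, 4.46 and 4.49 in KO optic vesicle, 5.53, 4.45 and 4.73 in WT surface ectoderm, and 4.31, 4.83 and 4.29 in KO surface ectoderm. In each WT group replicate 1 lay above the other arrays, and all groups overlapped. KO minus WT was -0.29 in optic vesicle (95% interval -1.02 to 0.44, limma adjusted p = 0.84) and -0.43 in surface ectoderm (-1.16 to 0.31, limma adjusted p = 0.58). Optic vesicle minus surface ectoderm was -0.18 in WT and -0.05 in KO (limma adjusted p = 0.82 and 0.97). The second probe was also high on WT optic vesicle replicate 1, at 5.60, but stood at 4.52 on WT surface ectoderm replicate 1. Probe 3 was not detected and stayed between 4.31 and 4.55.

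Aif1 (Entrez 11629, chromosome 17, 35170986 to 35176083) was detected on 9 of 12 arrays by its tested probe and spread widely within 3 of the 4 groups, with KO optic vesicle the tightest. WT optic vesicle stood at 4.57, 4.85 and 8.50, KO optic vesicle at 5.60, 5.00 and 4.52, WT surface ectoderm at 8.31, 6.55 and 8.24, and KO surface ectoderm at 4.51, 7.31 and 4.82. The within-group SD, pooled over the groups, was 1.45, above that of 99.9% of tested genes (median 0.386). The order of the means was WT surface ectoderm 7.70 ± 1.00, WT optic vesicle 5.97 ± 2.19, KO surface ectoderm 5.55 ± 1.54 and KO optic vesicle 5.04 ± 0.55 (SD, n = 3 each). No neighbours in this order were separated by more than the larger of their SDs.

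For Aif1, KO minus WT was -0.93 in optic vesicle (95% interval -2.94 to 1.08, limma adjusted p = 0.79) and -2.16 in surface ectoderm (-4.16 to -0.15, unadjusted p = 0.037, limma adjusted p = 0.24). In surface ectoderm KO replicate 2, at 7.31, lay above WT replicate 2, at 6.55, so the groups overlapped. Within slide 1 this difference was -2.77 and within slide 2 -0.93, without passing. Between the tissues of WT the difference was -1.73 (limma adjusted p = 0.32), and between those of KO -0.51 (limma adjusted p = 0.84). The WT value depends on WT optic vesicle replicate 3, without which it was -2.99 with a limma adjusted p of 0.036 (over its alternatives 0.036 to 0.67). Without the same array the optic vesicle difference between the genotypes was 0.33.

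The bright Aif1 value of that array was not shared by the other probes of the gene. The raw intensity of the tested probe there was 533, with a bead standard error of 14.5 over 41 beads, while the second probe read 127 on the same array and probe 3 read 119. The second probe, detected on 8 of 12 arrays, gave 4.82, 4.44 and 5.01 in WT optic vesicle, 6.10, 4.49 and 4.74 in KO optic vesicle, 6.62, 4.76 and 5.00 in WT surface ectoderm, and 5.12, 5.17 and 4.70 in KO surface ectoderm. Its highest value fell on WT surface ectoderm replicate 1, where the tested probe was also high. Over the 12 arrays, which differ in group, the tested and second probe correlated at 0.46, the tested probe and probe 3 at 0.33, and the second probe and probe 3 at 0.04. Probe 3 was not detected on any array.

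Laptm5 (Entrez 16792, chromosome 4, 130912890 to 130936148) was detected on every array, and its genotypes differed by less than the spread between arrays. It gave 8.09, 7.37 and 7.05 in WT optic vesicle, 8.15, 7.01 and 6.95 in KO optic vesicle, 8.98, 8.27 and 7.79 in WT surface ectoderm, and 7.68, 7.90 and 8.98 in KO surface ectoderm. The means fell in the order WT surface ectoderm 8.35 ± 0.60, KO surface ectoderm 8.18 ± 0.70, WT optic vesicle 7.50 ± 0.53 and KO optic vesicle 7.37 ± 0.68 (SD, n = 3 each). Neighbours in this order overlapped. KO minus WT was -0.13 in optic vesicle (95% interval -1.08 to 0.81, limma adjusted p = 0.96) and -0.16 in surface ectoderm (-1.11 to 0.78, limma adjusted p = 0.90). Optic vesicle minus surface ectoderm was -0.84 in WT (-1.79 to 0.10, limma adjusted p = 0.30) and -0.81 in KO (-1.76 to 0.13, limma adjusted p = 0.34). These tissue differences were -0.54 and -0.58 within the slides in WT, and -1.32 and -0.34 in KO.

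**Figure D3:**
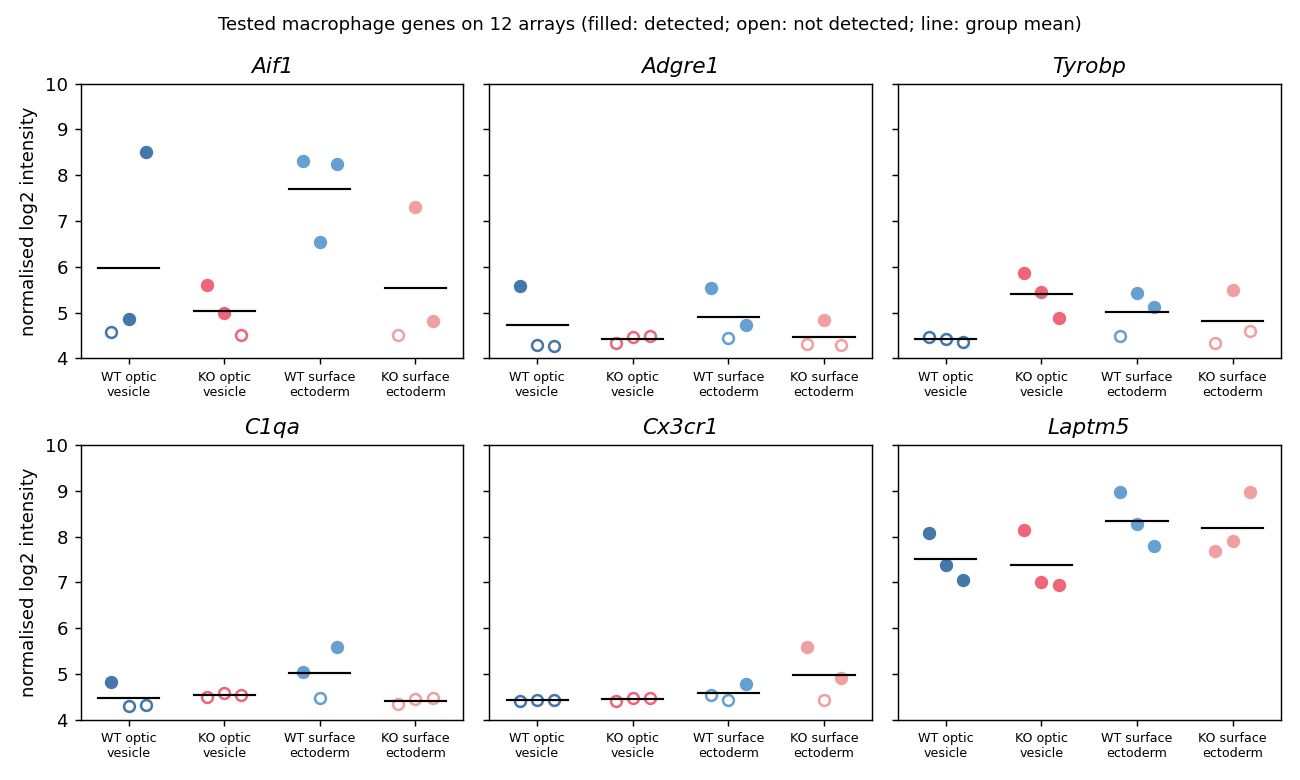
Normalised log2 intensity (vertical axis) of the 6 tested macrophage genes in the 4 groups of 3 arrays, with filled points for detected and open points for undetected arrays and a line at the group mean. Laptm5 is filled throughout, Tyrobp is filled in all 3 KO optic vesicle arrays and open in all 3 WT ones, and Aif1 spreads from 4.51 to 8.50.

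Over the 12 arrays, which share group and slide, the 15 pairs of genes correlated between -0.38 and 0.57 with a median of 0.08, and 9 pairs were above 0. The genes whose levels most resembled the mean of the 6 over the 12 arrays were Ldlrad4 (r = 0.90), Rtf2, Ptprs, Dap, Kcnq3, Bmp2k, Chrna4 and Nupr1 (r = 0.85). With the group means taken out they were Zfp457 (r = 0.99), Tmem198b, Lrrc9, Rsph1, Slc1a6, Slc22a7, Hs1bp3 and Mnat1 (r = 0.88). None of the 16 stands on the macrophage lists used here. They are the highest of 11924 genes over 12 arrays and are given as a description. The mean was taken without scaling, so Aif1 weighs most in it. Its within-group SD was 1.45, against 0.305 (Cx3cr1) to 0.631 (Laptm5) for the other tested macrophage genes.

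Of a list of 47 other macrophage and microglia genes 44 were on the arrays, and 23 of the 44 were measured, beside the 62.6% of all named genes. Ptprc (the leukocyte antigen CD45), Itgam, Trem2, Cd14, Fcgr1 and Spi1 were not detected on any array. In optic vesicle 0 of 23 rose and 0 fell by limma's adjusted p, while 2 had an unadjusted p below 0.05, Cd83 at -1.18 (adjusted p = 0.062, over its alternatives 0.020 to 0.58) and Fcgr3 at -0.59 (adjusted p = 0.37). Cd83 passed with the authors' matrix, without background correction, with the larger offset and with array weights. In surface ectoderm 2 rose and 1 fell, with a list median of -0.15 beside 0.02 for all genes. The other 2 genes with an unadjusted p below 0.05 there were Sall1 at -1.04 and Lyz2 at -0.79 (adjusted p = 0.24 for each), chosen after their values were seen.

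The genes that changed are also known outside macrophages. Maf, a transcription factor of macrophages and of the lens, stood at 9.17, 9.32 and 8.67 in WT surface ectoderm and at 5.81, 5.32 and 6.48 in KO, and fell by 3.18 on the log2 scale (9.08-fold, limma adjusted p = 0.00089). Dab2, an endocytic adaptor, rose by 3.06 (limma adjusted p = 0.0019), from 5.34, 8.20 and 7.27 to 9.76, 9.95 and 10.28. Plek, the pleckstrin of platelets and leukocytes, rose by 2.27 (limma adjusted p = 0.0496, over its alternatives 0.0094 to 0.54), from 5.95, 7.11 and 5.30 to 6.98, 8.85 and 9.34. KO and WT arrays did not overlap for Maf and Dab2 and overlapped for Plek. Plek did not pass without WT surface ectoderm replicate 1 (adjusted p = 0.13) or 3 (adjusted p = 0.15), or without KO surface ectoderm replicate 2 (adjusted p = 0.14) or 3 (adjusted p = 0.17). Within slides 1 and 2 the differences were -3.10 and -3.35 for Maf, 3.25 and 2.69 for Dab2, and 1.63 and 3.54 for Plek. Of these 6 values only Dab2 on slide 2 passed (limma adjusted p = 0.027), while Maf had adjusted p = 0.099 and 0.058.

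Of the ligands of these receptors, Cx3cl1 fell in KO surface ectoderm. Of 8 ligands and chemokines 3 were measured, and Il34, the second ligand of Csf1r, and Ccl2 were not detected on any array. Cx3cl1, the ligand of Cx3cr1, stood at 7.35, 8.19 and 7.39 in WT surface ectoderm and at 4.86, 5.64 and 4.55 in KO surface ectoderm, without overlap. It fell by 2.63 (6.18-fold, limma adjusted p = 0.0010), with a signal above background on all 3 WT arrays and on 2 KO arrays. In optic vesicle it was 4.78, 4.40 and 4.51 in WT and 4.51, 4.96 and 5.56 in KO, a difference of 0.45 that did not pass (limma adjusted p = 0.75). The genotype effects differed between the tissues by 3.07 (limma adjusted p = 0.012). In WT, optic vesicle was lower than surface ectoderm by a log2 difference of -3.08 (limma adjusted p = 0.00014), and in KO the difference was 0.00 (limma adjusted p = 1.00). Within slide 1 the surface ectoderm change was -3.07 and within slide 2 -1.75, where the few arrays left gave limma adjusted p = 0.12 and 0.24 (over all alternatives 0.00044 to 0.24).

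Csf1, the first ligand of Csf1r, gave 6.18, 6.98 and 6.72 in WT optic vesicle and 5.48, 5.89 and 5.38 in KO optic vesicle. The groups did not overlap, and the difference of -1.04 did not pass (limma adjusted p = 0.36). In surface ectoderm it gave 6.42, 4.43 and 5.13 in WT and 5.48, 5.33 and 5.59 in KO (0.14, limma adjusted p = 0.91). Cxcl12, a chemokine that guides many migrating cells, had means of 9.58 ± 0.27 in WT and 9.84 ± 0.18 in KO surface ectoderm, against 4.92 ± 0.60 and 5.84 ± 0.32 in optic vesicle. Its tissue difference was -4.66 in WT and -4.00 in KO (limma adjusted p = 4.3e-07 and 3.0e-06). Between genotypes it did not pass in optic vesicle (0.91, adjusted p = 0.25) or surface ectoderm (0.25, adjusted p = 0.77).

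Of 13 measured genes for the clearance of dying cells, 0 passed in optic vesicle by limma, with 1, Axl, at an unadjusted p below 0.05, and 2 rose in surface ectoderm. Axl, a receptor of the TAM family that binds dying cells through Gas6, stood at 4.52, 6.55 and 4.80 in WT surface ectoderm and at 8.10, 8.62 and 9.21 in KO, all above WT. It rose by 3.36 (10.2-fold, limma adjusted p = 0.00089). In optic vesicle it gave 7.42, 7.33 and 6.48 in WT and 8.65, 8.38 and 7.96 in KO, a difference of 1.25 that did not pass (adjusted p = 0.30). Cd36, a scavenger receptor of phagocytes, endothelium and other cells, went from 5.42, 4.81 and 4.55 to 6.92, 6.14 and 7.46 in surface ectoderm, a rise of 1.92 (limma adjusted p = 0.0030), and was not detected in optic vesicle. Within slides 1 and 2 the changes were 3.12 and 3.82 for Axl and 2.08 and 1.59 for Cd36, of which only Axl on slide 2 passed (limma adjusted p = 0.049).

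The other 11 measured genes of this list did not pass between genotypes in surface ectoderm. Among them Itgav, an integrin gene, had an unadjusted p of 0.039 (-0.94, limma adjusted p = 0.24), with WT at 7.28, 6.97 and 7.40, all above KO at 6.30, 6.75 and 5.77. Mfge8, a bridging protein between dying cells and phagocytes, stood at 11.71 ± 0.09 and 11.77 ± 0.13 in WT and KO optic vesicle and at 12.88 ± 0.10 and 12.85 ± 0.20 in WT and KO surface ectoderm. Mertk, the TAM receptor most used by macrophages, had differences of 0.34 in both tissues (limma adjusted p = 0.90 and 0.82). Between the tissues of WT, Axl was higher and Mfge8 and the integrin gene Itgb5 were lower in optic vesicle. In KO, Cd36, Mfge8 and Itgb5 were lower there, and surface ectoderm exceeded the undetected optic vesicle at least 4.32-fold for Cd36. Itgav, Mertk and Itgb5 were chosen after their values were seen.

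**Figure D4:**
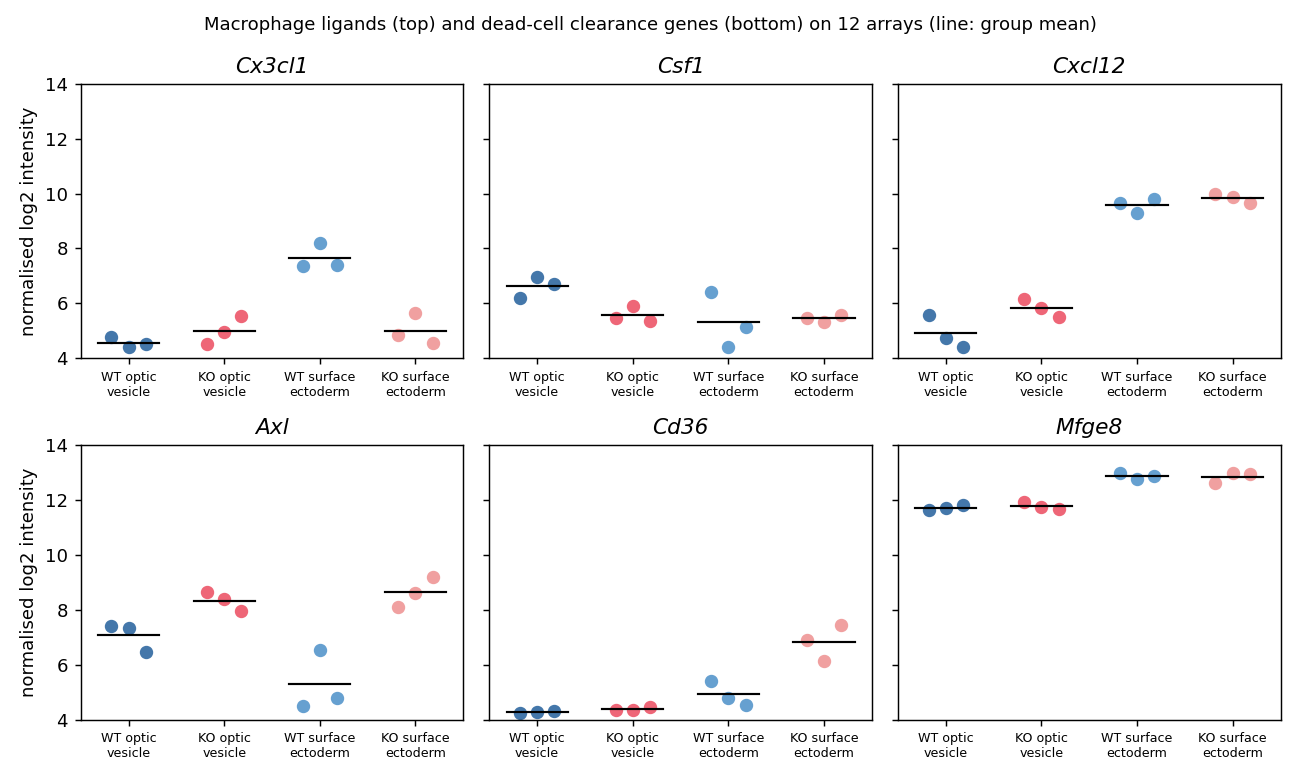
Normalised log2 intensity (vertical axis) of the ligands Cx3cl1, Csf1 and Cxcl12 and of the clearance genes Axl, Cd36 and Mfge8 in the 4 groups, 1 point per array with a line at the group mean. Cx3cl1 is high in WT surface ectoderm only, and Axl and Cd36 are higher in KO than in WT surface ectoderm.

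Of 5 measured complement partners, 0 passed in optic vesicle by limma, with Calr alone at an unadjusted p below 0.05 (0.50, adjusted p = 0.090, over its alternatives 0.032 to 1.00, passing with array weights). In surface ectoderm 0 rose and 1 fell. Calr, the calreticulin of the endoplasmic reticulum, which can also bind C1q at the cell surface, stood at 10.90, 10.48 and 10.53 in WT and at 10.15, 10.03 and 10.14 in KO, and fell by 0.53 (limma adjusted p = 0.037, over its alternatives 0.033 to 0.37). It passed in the full set of arrays but not without WT surface ectoderm replicate 1 (adjusted p = 0.14) or 3 (0.0502), nor without KO replicate 1, 2 or 3 (0.062, 0.099 and 0.069). Within slides 1 and 2 it was -0.54 and -0.50, without passing. C1ra and C1s1, the proteases of the C1 complex, were not detected.

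Of 5 measured ITAM adaptor partners and kinases, 0 passed in either tissue by limma, and 1 in each had an unadjusted p below 0.05. These were Fcgr3 in optic vesicle (-0.59, adjusted p = 0.37) and the phosphatase gene Ptpn6 in surface ectoderm (1.08, adjusted p = 0.21). Between the tissues of KO, Ptpn6 was lower in optic vesicle (-1.68, limma adjusted p = 0.032). Trem2 and the kinase gene Btk were not detected, and Syk was detected on 1 array. Fcgr3 is also on the macrophage list, so the lists are not independent.

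Some markers of other blood and vessel cells differed between the genotypes, and no test compared the lists. Of 8 endothelial genes 4 rose and 0 fell in KO surface ectoderm: Pecam1 by 1.36 (at least 2.14-fold, limma adjusted p = 0.0022), Cldn5 by 2.14 (adjusted p = 0.014), Emcn by 1.82 (adjusted p = 0.019) and Sox17 by 1.55 (adjusted p = 0.034). The list median was 1.45. Cldn5 did not pass without WT replicate 1 (adjusted p = 0.062). Emcn did not pass without WT replicate 1 or 3 or KO replicate 3 (adjusted p = 0.058, 0.051 and 0.061). Sox17 passed without KO replicate 1 (adjusted p = 0.011) and not without any of the other 5 surface ectoderm arrays (0.076 to 0.11). In optic vesicle 0 of 8 passed, and 0 had an unadjusted p below 0.05. The summed level of this list ran from 200 to 294 in WT and from 677 to 722 in KO surface ectoderm, in linear normalised intensity, while that of the macrophage genes ran from 511 to 947 in WT and from 336 to 629 in KO. A linear sum follows the brightest genes, so that of the macrophage genes rests mostly on Laptm5 and, on some arrays, Aif1.

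Of 6 platelet genes, Pf4, the platelet chemokine, rose in optic vesicle by 2.99 (limma adjusted p = 0.0068), and 3 rose in surface ectoderm. These were Pf4 by 3.70 (at least 10.1-fold, adjusted p = 0.00062), Ppbp by 2.74 (at least 4.97-fold, adjusted p = 0.00098) and Plek, which also stands on the macrophage list. Pf4 is known from some macrophages as well as platelets. Of 6 erythroid genes, 4 embryonic and alpha globins rose in optic vesicle, with rises of 1.77 for Hba-x, 1.45 for Hba-a1, 1.27 for Hbb-y and 1.16 for Hbb-bh1 (limma adjusted p from 5.0e-06 to 0.00054). Hba-x alone rose in surface ectoderm, by 0.85 (adjusted p = 0.023), and did not pass without WT replicate 1, 2 or 3 or KO replicate 1 (adjusted p = 0.0736, 0.0514, 0.0588 and 0.0801). The summed level of the erythroid list ran from 2042 to 2150 in WT and from 4785 to 5090 in KO optic vesicle, the tissue in which Tyrobp was detected in KO alone. That of the macrophage genes there ran from 277 to 574 in WT and from 244 to 456 in KO. The WT top fell on replicate 3, where the tested Aif1 probe read 8.50, a value that its other probes did not share. The part of blood cells in that Tyrobp signal was not tested.

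Of 5 measured genes of other leukocytes 0 passed in any of the 4 comparisons by limma, and 0 had an unadjusted p below 0.05. Of 9 mesenchyme and neural crest genes 2 rose in optic vesicle, Postn by 3.46 and Alx4 by 2.97 (limma adjusted p = 1.6e-05 and 0.0023). In surface ectoderm 5 rose and 1 fell. Among them were Twist1 at 2.80, Alx4 at 3.67 and Col3a1 at 3.79, which are genes of head mesenchyme, and Pdgfra at -2.49 (adjusted p from 0.00013 to 0.00038). Of 6 genes listed as optic vesicle markers Sfrp2 fell in optic vesicle (-0.92), and in surface ectoderm Pax6 and Sfrp2 fell (both -0.98) and Mab21l2 rose (2.06). Pax6 and Sfrp2 were not higher in optic vesicle than in surface ectoderm of WT (-0.54 and -0.004, limma adjusted p = 0.0037 and 0.99). Mab21l2 was higher there (3.22, limma adjusted p = 2.2e-05). Without WT optic vesicle replicate 1 Sfrp2 did not pass in optic vesicle (adjusted p = 0.052). Of 9 surface ectoderm markers Krt18 rose in optic vesicle (2.04), and Trp63 (2.58) and Perp (3.27) rose in surface ectoderm. Within slides the 7 changes named here for blood, vessel and mesenchyme genes in optic vesicle kept their direction, but 0 passed on slide 1 and 3 on slide 2, those of Hbb-y, Hbb-bh1 and Postn. The 12 in surface ectoderm also kept their direction, and 0 passed on slide 1 and 3 on slide 2, those of Pf4, Alx4 and Col3a1. Markers of several other cell types thus differed between the genotypes, and their part in the differences of macrophage, ligand and clearance genes was not tested.

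**Figure D5:**
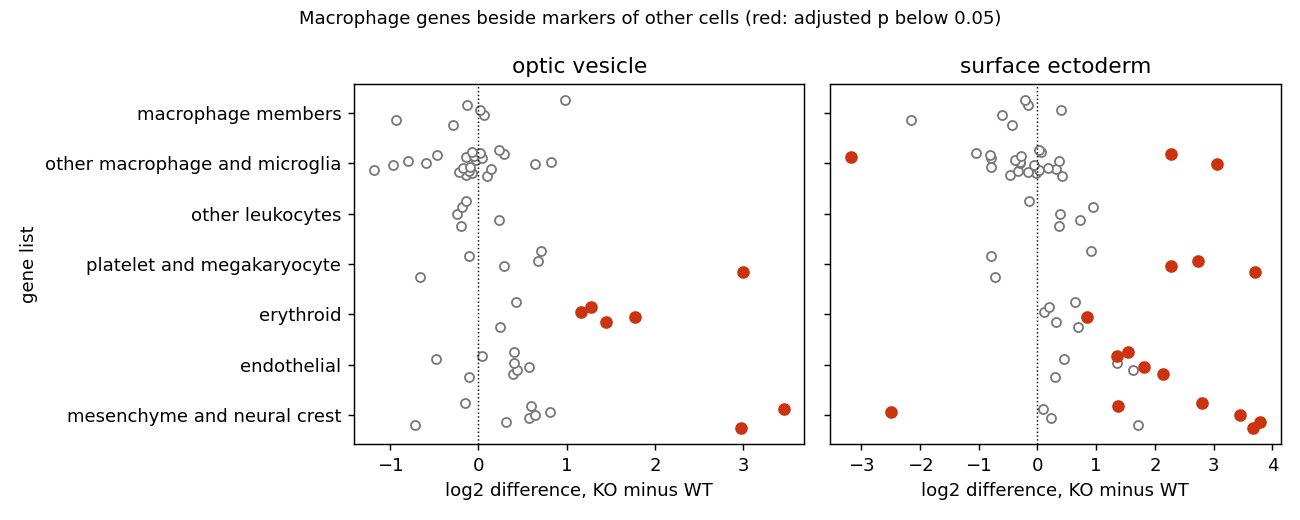
Log2 difference KO minus WT (horizontal axis) of each measured gene, by gene list (vertical axis), in optic vesicle and in surface ectoderm, with red points where the limma adjusted p was below 0.05. The 6 macrophage genes have no red point in either tissue, while 4 of 6 erythroid genes are red in optic vesicle and 4 of 8 endothelial genes in surface ectoderm.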

How the data were processed

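RNA of 12 samples was measured on Illumina bead arrays. The deposited table gives per probe and array a mean bead intensity, neither background-subtracted nor normalised, its bead standard error, the number of beads and a detection p-value, per the file headers. It was made with GenomeStudio, per the submitters' processing notes. The authors also deposited processed intensity values, used as an alternative. Their scale is linear, and their ranks in each column matched the same array (Spearman rho 1, at most 0.867 with another array). Their column medians were 9.41, 9.41 and 9.41 in WT optic vesicle, 9.40, 9.42 and 9.41 in KO optic vesicle, 9.40, 9.41 and 9.41 in WT surface ectoderm and 9.41, 9.41 and 9.40 in KO surface ectoderm, and how they were centred is not given in the sources used here.

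Intensities were normalised with neqc (limma 3.58.1, R 4.3.3, offset 16, quantile, log2). Probes with a detection p below 0.05 on at least 3 arrays were kept (24978 of 45281), and each of 11924 genes was read by its kept probe of highest mean. The platform annotation gave 34885 probes 1 symbol, 18 several and 10378 none, and the RefSeq table changed 0 symbols. Groups were compared over all 12 arrays with limma's moderated test (lmFit, then eBayes, trend), without a block, two-sided, Benjamini-Hochberg adjusted over all genes, threshold 0.05. Residuals of same-numbered arrays correlated between -0.04 and 0.02. They were not set against those of differently numbered arrays, so they do not settle whether the numbers pair the samples. A bead array holds no count of molecules, and the number of arrays limits the precision. The pipeline was tested on simulated data.

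The macrophage genes and the companion lists were chosen with earlier results of these data known. All macrophage genes are named. Of each list the genes that passed are named by lowest p, up to 4, or up to 6 for the ligand, complement, ITAM and clearance lists, or, where none passed, up to 2. Likeness takes the 8 genes of highest correlation. Alternatives covered the authors' matrix, background, offset, detection filter, probes, slide, array weights, the replicate block and each array left out.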

Additional observations from a re-analysis of the deposited data

Results flagged for a closer look

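Only the macrophage genes and the companion genes named by rule for KO against WT were looked at here. Many of the latter were picked because they passed in a tissue on these same arrays. For 12 of these companion genes the genotype effect, KO minus WT, differed between the tissues by the limma interaction (adjusted p below 0.05). Over all genes 1.41% passed this test. Each value is the log2 effect in optic vesicle minus that in surface ectoderm. Among the 12, those that bear on macrophages were Cx3cl1 with 3.07 (adjusted p = 0.012), Maf with 3.04 (adjusted p = 0.034) and Calr with 1.03 (adjusted p = 0.014). Cx3cl1 and Maf changed by 0.45 and -0.14 in optic vesicle, without passing there, and fell in surface ectoderm. Calr was 0.50 higher in KO optic vesicle, without passing, and fell by 0.53 in KO surface ectoderm. Among the markers of other cells the embryonic globins Hbb-y and Hbb-bh1 had differences of 1.08 and 1.05 (adjusted p = 0.00094 and 0.00093). The mesenchyme genes Postn and Pdgfra had 3.37 and 3.31 (adjusted p = 0.0010 and 0.0015), and Twist1 and Col3a1 had -2.95 and -3.48 (adjusted p = 0.0045 and 0.026). Pax6, an eye transcription factor, had 1.05 (adjusted p = 0.0015), Krt18, an epithelial keratin, 1.53 (adjusted p = 0.013), and Trp63, an epidermal regulator, -2.55 (adjusted p = 0.023). None of the 6 tested macrophage genes passed this test by limma, and Tyrobp alone had an unadjusted p below 0.05.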

How the results depend on the processing

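The count of macrophage genes that passed was 0 in all 5 comparisons, and 91 of 93 recomputed counts were also 0. The other 2 concern optic vesicle against surface ectoderm in WT. Within slide 2 it was 1, C1qa, and with single arrays left out it ran from 0 to 1, the 1 being Aif1 without WT optic vesicle replicate 3. The cause was not tested. Of 543 recomputed differences of single macrophage genes, 490 kept direction and side of the threshold, 51 changed sign or fell to 0 without passing, and 2 newly passed. Tyrobp in optic vesicle ran from 0.35 to 1.24 (adjusted p 0.10 to 1.00), Aif1 in surface ectoderm from -3.04 to -0.93 (0.099 to 0.86) and C1qa in surface ectoderm from -1.13 to -0.22 (0.058 to 0.67). Of 859 recomputed companion differences 751 kept direction and side of the threshold, 101 no longer passed, 5 newly passed, 2 changed sign without passing and 0 passed in the opposite direction. The 5 were Cd83 in 4 alternatives and Calr in 1, both in optic vesicle. In the counts over all genes given next, the alternative with every kept probe counted probes in place of genes. Counts over all genes ran from 0 to 412 in optic vesicle, 19 to 811 in surface ectoderm, 76 to 1438 and 57 to 1290 between tissues of WT and KO, and 0 to 212 for the interaction.

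The replicate block gave 0 macrophage genes in each comparison, with Tyrobp at 0.98 (adjusted p = 0.22) in optic vesicle and Aif1 at -2.16 (adjusted p = 0.27) in surface ectoderm. Among the companion genes it ended 1 call, Sox17 (adjusted p = 0.055). A probe near the detection limit gives only a bound, which holds for 5 of the 6 tested genes in some arrays.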

Other observations

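Further genes of the macrophage list gave values by tissue or array that are not described above. They were chosen after their values were seen. Cd83, an activation marker of antigen-presenting cells, was detected on all 6 optic vesicle arrays and on no surface ectoderm array. It was at least 4.61-fold higher in optic vesicle than in surface ectoderm of WT and at least 2.03-fold higher in KO (limma adjusted p = 4.5e-05 and 0.0091). Stab1, a scavenger receptor, stayed between 11.41 and 11.77 on all 12 arrays, without passing between any of the groups. Irf8, a transcription factor of the myeloid line, was not detected in WT optic vesicle (4.58, 4.57 and 4.32) and was detected in all 3 KO optic vesicle arrays (6.30, 4.86 and 4.79). The detections matched those of Tyrobp, and the difference of 0.83 did not pass (limma adjusted p = 0.74). The KO values 4.86 and 4.79 lay close to the dimmest signals detected on their arrays (4.74 and 4.73). Other genes of the list varied. More of them lost than gained detections in KO optic vesicle. Fcgr3 and Arhgap30 were each detected on 2 WT and 0 KO optic vesicle arrays. Mrc1, P2ry12, Cd53, Cd52 and Csf2rb were each detected on 1 WT and 0 KO, Lyz1 on 2 and 1, and Lst1 on 3 and 2. Tmem119 and Alox5ap were each detected on 0 WT and 1 KO, and Ctss on 1 and 2. In surface ectoderm Irf8 gave 7.26, 5.00 and 7.04 in WT and 5.35, 7.85 and 5.21 in KO. P2ry12, a receptor of microglia, was detected on all 6 surface ectoderm arrays (7.44, 5.01 and 5.96 in WT, 5.80, 5.02 and 5.17 in KO) and on 1 of 6 optic vesicle arrays. Its differences did not pass between genotypes (limma adjusted p = 0.81 in optic vesicle and 0.46 in surface ectoderm) or tissues (0.21 in WT and 0.41 in KO).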
